A study of Mus musculus with 8 samples.

Results

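The genes described here are the chains of cardiac myosin and the kinase of its light chain, namely Myh6, Myh7, Myh7b, Myl2, Myl3, Myl4, Myl7, Myl9 and Mylk3. They were chosen by name and function from the raw count table, as the rows whose Entrez identifier maps to these symbols, and they are 9 of its 27179 genes. All 9 passed the filter on low counts, which kept 14966 genes. RNA was sequenced from neonatal cardiomyocytes (NCMs) of C57Bl/6J mice, 4 libraries from offspring of dams kept in filtered air (FA) and 4 from offspring of dams exposed to diesel exhaust (DE), both from E0.5 to E17.5 (embryonic days). Each library was made from 1 male heart taken on postnatal day 0, which was trimmed of atrial and vascular tissue, dissociated with Liberase, treated with Ara-C and pre-plated to remove fibroblasts. No genotype beyond the strain is given, and whether pups shared a litter is not stated. The FA libraries are replicates 2, 3, 4 and 6, and the DE libraries are replicates 1, 3, 5 and 7. Sample names of all FA libraries and of DE replicates 1 and 7 carry the prefix 11 and those of DE replicates 3 and 5 carry 12, with no meaning given for it. The methods state a smaller number of hearts per group than the labels list, so all 8 libraries were used.

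A myosin of the sarcomere, the contractile unit of heart muscle, is built from a pair of heavy chains that carry the ATP-splitting motor, and each heavy chain binds an essential and a regulatory light chain at its neck. In the mouse ventricle the slower β heavy chain, encoded by Myh7, dominates before birth, and the faster α heavy chain, encoded by Myh6, replaces it around and after birth under thyroid hormone. The light chains also come in atrial and ventricular forms, and phosphorylation of the regulatory light chain by cardiac myosin light chain kinase, the product of Mylk3, tunes the force of contraction.

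Myh6 was lower and Myh7 was higher in DE NCMs than in FA NCMs. FA NCMs held more than 2 fragments of Myh6 for each fragment of Myh7, and DE NCMs held nearly equal numbers of both. None of the other 7 genes was called at an adjusted p of 0.05 and a difference of 25% in edgeR's quasi-likelihood test. The 2 called genes compare with 5.8% of all tested genes called in either direction, 2.22% lower and 3.58% higher in DE. Levels are given in CPM (counts scaled to library size, with TMM factors), and the median difference of all tested genes was 0.00 on the log2 scale, against -0.05 over the 9 myosin genes. Library totals ran from 17943024 to 39839737 counted fragments, and the 9 genes together took 3.96% to 4.54% of them. The libraries are bulk preparations, in which fewer cardiomyocytes and less RNA per cardiomyocyte cannot be told apart.

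Myh6 (Entrez 17888) and Myh7 (Entrez 140781) lie next to each other on the minus strand of chromosome 14. Myh6 is at 54941921 to 54968017 with 39 exons and Myh7 upstream of it at 54970684 to 54994626 with 41 exons. Spans are those of RefSeq on GRCm38.p6, and exons are those of the longest GENCODE transcript with a RefSeq link. Because the levels of Myh6 and Myh7 moved in opposite directions, the RefSeq promoter windows of both genes are shown, from 250 bases before to 50 after a start site. Capitals mark the motifs searched on both strands other than the E-box CANNTG, which 72.3% of promoters hold, and the windows are chr14:54966558-54966857 for Myh6 and chr14:54994577-54994876 for Myh7, both on the minus strand of GRCm38.p6.
Myh6: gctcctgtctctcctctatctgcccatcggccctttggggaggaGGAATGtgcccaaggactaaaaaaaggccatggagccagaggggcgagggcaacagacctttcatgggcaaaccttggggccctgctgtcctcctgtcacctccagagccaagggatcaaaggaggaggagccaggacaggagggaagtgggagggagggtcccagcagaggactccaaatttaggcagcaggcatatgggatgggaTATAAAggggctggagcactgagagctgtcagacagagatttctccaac
Myh7: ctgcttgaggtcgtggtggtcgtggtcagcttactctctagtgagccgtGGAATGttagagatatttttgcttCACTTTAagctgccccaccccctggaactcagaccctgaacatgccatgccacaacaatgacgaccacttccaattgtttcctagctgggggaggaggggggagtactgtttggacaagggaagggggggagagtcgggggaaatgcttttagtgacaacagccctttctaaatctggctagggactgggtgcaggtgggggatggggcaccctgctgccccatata
Both windows hold CATTCC, the core of the M-CAT element bound by TEAD factors, on the reverse strand, at -206 in Myh6 and at -201 in Myh7 counted from the RefSeq start site. CATTCC is found in 14.7% of 32851 RefSeq mouse promoters of 300 bases. The Myh6 window also holds TATAAA, found in 13.6% of promoters, at 1, which is next to the RefSeq start site and not upstream of it. The Myh7 window holds TNAAGTG, the NKX2-5 core, found in 11.5%, at -177. A second RefSeq window of Myh7 held none of these, and the start site used for the Myh6 window lies inside the longer span given above for Myh6.

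Each of the 3 cardiac heavy chain genes carries a microRNA inside an intron, and these microRNAs are shown because their hosts differ in direction. Poly-A libraries do not measure the mature forms, so no value is given for them. The seed, bases 2 to 8 of the mature RNA, is in capitals, from RefSeq on GRCm38.p6.
mmu-miR-208a-3p in Myh6 (chr14:54949072-54949093, minus strand): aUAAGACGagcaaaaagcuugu
mmu-miR-208b-3p in Myh7 (chr14:54975710-54975731, minus strand): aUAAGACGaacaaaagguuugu
mmu-miR-499-5p in Myh7b (chr2:155622893-155622913, plus strand): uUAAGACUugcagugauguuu
The microRNAs of Myh6, lower in DE, and of Myh7, higher in DE, share the seed UAAGACG, and that of Myh7b has UAAGACU.

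Myh6, the α heavy chain, stood at 24710, 21240, 23120 and 24130 CPM in FA replicates 2, 3, 4 and 6 and at 14740, 13760, 15430 and 14560 CPM in DE replicates 1, 3, 5 and 7. Every DE library lay below every FA library, and the spread within DE was narrow. The means were 23300 ± 1521 CPM in FA against 14620 ± 684.9 CPM in DE (SD, n = 4 per group), a log2 difference of -0.67 (SE 0.09, edgeR adjusted p = 0.00315). The FA level was thus 1.59 times the DE level. Myh6 was the most abundant gene of the table in 3 of the 4 FA libraries and ranked 2 to 4 in DE.

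Myh7, the β heavy chain, stood at 10310, 9343, 11230 and 9205 CPM in FA and at 14180, 13520, 15530 and 14740 CPM in DE. The groups did not overlap here either, with DE above FA. The means were 10020 ± 943.5 and 14490 ± 852.3 CPM (SD, n = 4 per group), a 1.45-fold rise with a log2 difference of 0.53 (SE 0.10, edgeR adjusted p = 0.0157). Its rank among all genes was 7 to 10 in FA and 3 in every DE library. With the name prefix as a term the difference was 0.53 with an edgeR adjusted p of 0.0512, and with only the libraries of prefix 11, which leaves DE replicates 1 and 7, it was 0.52 with an edgeR adjusted p of 0.0724. All FA libraries carry prefix 11, so the prefix term likewise leaves the difference to DE replicates 1 and 7 against FA. Between the prefixes within DE, Myh6 was at 14650 and 14600 CPM and Myh7 at 14460 and 14520 CPM.

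**Figure D1:**
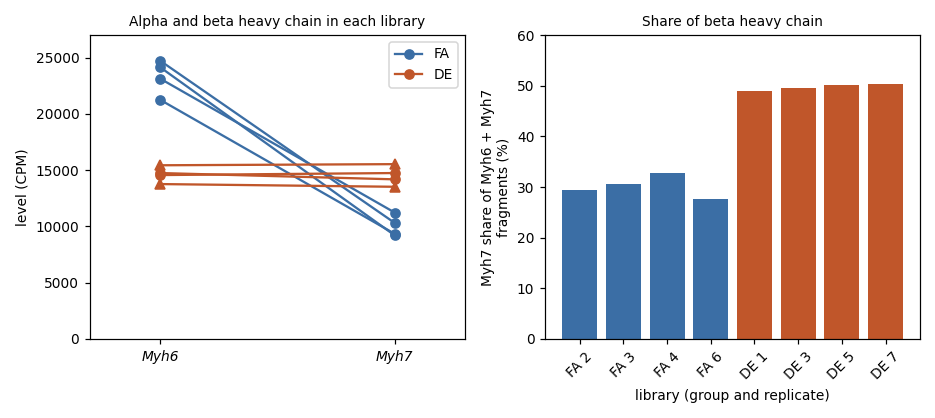
Left, Myh6 and Myh7 levels in CPM with 1 line per library (FA blue, DE orange, triangles for libraries of prefix 12). Right, bars of the Myh7 share of all Myh6 and Myh7 fragments in percent for each library, which run from 27.6% to 32.7% for FA and from 49.0% to 50.3% for DE.

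The ratio of β to α heavy chain within a library does not depend on library scaling. It was 0.4173, 0.4398, 0.4858 and 0.3815 in FA and 0.9624, 0.9824, 1.006 and 1.013 in DE. The DE hearts lay close together near 1, and the highest FA heart stayed below the lowest DE heart. The mean ratio was 0.431 ± 0.0437 in FA and 0.991 ± 0.0231 in DE (SD, n = 4 per group), a 2.31-fold difference or 1.21 on the log2 scale (exact two-sided permutation test, p = 0.0286). That p is the smallest that 4 against 4 libraries can give, and after Benjamini-Hochberg adjustment over the 8 ratios examined it is 0.229 (exact permutation test), so this design could not bring 1 ratio of 8 past 0.05. Expressed as a share of Myh6 and Myh7 fragments, Myh7 rose from 30.0% ± 2.13 to 49.8% ± 0.602 (SD, n = 4 per group). The widest 95% Wilson interval of any library's share was 0.26 percentage points, which covers counting error only.

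The difference between the 2 heavy chains was larger than the difference in their sum. Myh6 and Myh7 together stood at 35020, 30590, 34350 and 33330 CPM in FA and at 28920, 27280, 30960 and 29300 CPM in DE. Most DE libraries lay below FA, and DE replicate 5 lay above FA replicate 3. The mean sum was 33320 ± 1951 CPM in FA against 29120 ± 1509 CPM in DE (SD, n = 4 per group), a difference of -12.6% that was not tested.

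Reads can be shared between the pair. The Myh6 and Myh7 transcripts aligned at 90.7% identity, and 22.6% of the 50-base windows of Myh6 occurred in Myh7, while 22.2% of those of Myh7 occurred in Myh6. How fragments that match both genes were counted is not given in the sources used here, so the levels of the pair are uncertain to that extent. None of the other chain pairs compared, Myh7b with either heavy chain or the light chains among themselves, shared a window. Mhrt, an antisense RNA on the plus strand that overlaps Myh7, averaged 9.442 ± 2.949 CPM in FA against 6.289 ± 2.656 CPM in DE (SD, n = 4 per group), with a log2 difference of -0.59 (SE 0.30, edgeR adjusted p = 0.232).

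Myh7b (Entrez 668940, chromosome 2, 155611243 to 155634307, plus strand, 42 exons) encodes a further sarcomeric heavy chain, found in heart and slow skeletal muscle. It stood at 157.4, 157.4, 142.7 and 114.5 CPM in FA and at 106.9, 171.9, 179.4 and 108.7 CPM in DE. The groups overlapped fully, and the DE libraries fell into a low and a high pair. The means were 143.0 ± 20.23 and 141.7 ± 39.31 CPM (SD, n = 4 per group), a log2 difference of -0.01 (SE 0.18, edgeR adjusted p = 0.975).
The pairs were those of the name prefix. DE replicates 3 and 5 averaged 175.7 CPM and DE replicates 1 and 7 averaged 107.8 CPM, a log2 difference of 0.70 (SE 0.16, edgeR adjusted p = 0.0445), and 2.06% of all tested genes were called between the prefixes. Myh7b was the only one of the 9 genes called there. With the prefix as a term its difference between DE and FA was -0.41 (SE 0.14, edgeR adjusted p = 0.141). With the libraries of prefix 11 only, which likewise compares DE replicates 1 and 7 with FA, it was -0.41 (edgeR adjusted p = 0.188). Relative to Myh7, Myh7b was at 0.0143 ± 0.00212 in FA and 0.0098 ± 0.00274 in DE (SD, n = 4 per group; exact two-sided permutation test, p = 0.0857, adjusted over the 8 ratios 0.305).

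**Figure D2:**
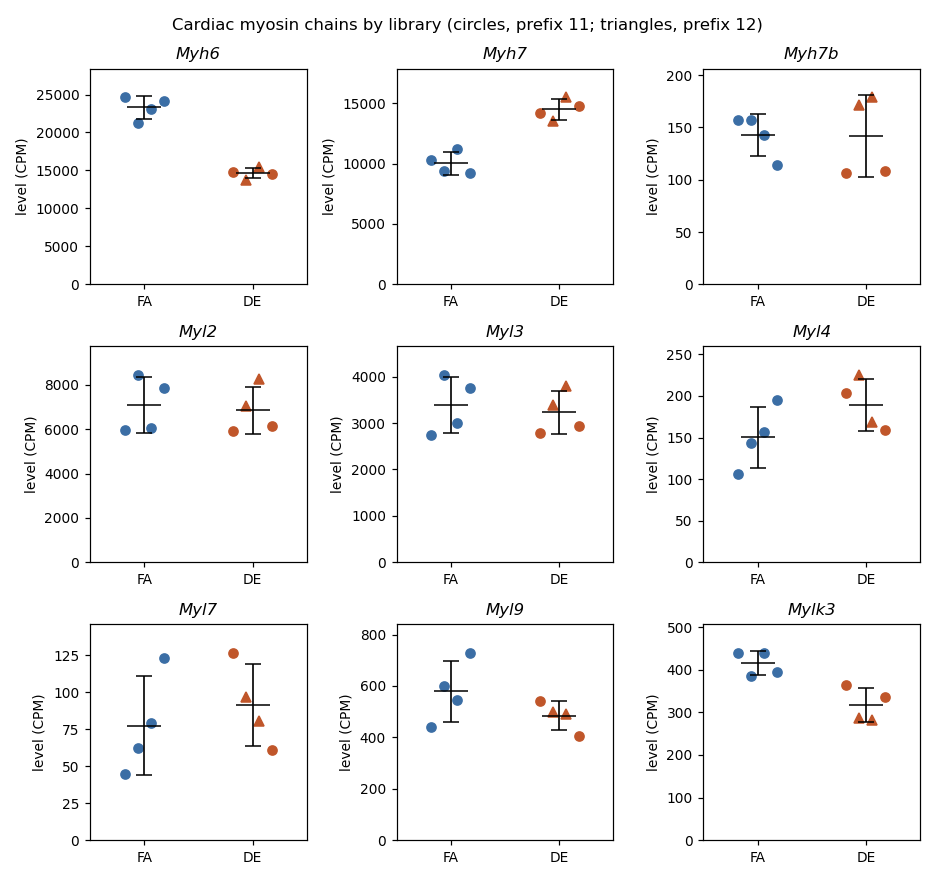
Level in CPM of each of the 9 genes by library, FA in blue and DE in orange, with triangles for libraries of prefix 12 and lines for the mean and SD of each group (n = 4). The groups separate for Myh6, Myh7 and Mylk3 and overlap for the other genes, and Myh7b splits by prefix within DE.

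The ventricular light chains did not pass the test. With length and GC offsets Myl2 reached -0.21 (edgeR adjusted p = 0.0424) and Myl3 -0.26 (edgeR adjusted p = 0.0208), past the adjusted p and short of the 25% difference. Myl2 (Entrez 17906, chromosome 5, 122092724 to 122113473, plus strand) encodes the ventricular regulatory light chain. It stood at 5973, 8465, 6062 and 7884 CPM in FA and at 5900, 7060, 8283 and 6146 CPM in DE. In each group 2 libraries were low and the others higher, and the ranges overlapped almost completely. The low DE pair was that of prefix 11 (mean 6023 CPM, against 7671 CPM for prefix 12, edgeR adjusted p = 0.28). The means were 7096 ± 1268 and 6847 ± 1079 CPM (SD, n = 4 per group), a log2 difference of -0.05 (SE 0.15, edgeR adjusted p = 0.855). Ccdc63 on the opposite strand overlaps its span.

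Myl3 (Entrez 17897, chromosome 9, 110763678 to 110769802, plus strand), the ventricular essential light chain, followed the same order of libraries within each group as Myl2. It stood at 2746, 4044, 3008 and 3753 CPM in FA and at 2795, 3384, 3796 and 2939 CPM in DE. The libraries highest for Myl2, FA replicate 3 and DE replicate 5, were also highest for Myl3. The means were 3388 ± 611.2 and 3228 ± 454.0 CPM (SD, n = 4 per group), a log2 difference of -0.07 (SE 0.14, edgeR adjusted p = 0.792).

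The atrial light chains were present at low levels and varied widely between hearts. Myl4 (Entrez 17896, chromosome 11, 104546017 to 104587215, plus strand) encodes the atrial and fetal essential light chain. It stood at 106.6, 142.9, 156.5 and 195.4 CPM in FA and at 203.4, 225.7, 169.3 and 158.8 CPM in DE, with means of 150.4 ± 36.67 and 189.3 ± 30.83 CPM (SD, n = 4 per group). The ranges overlapped, and the log2 difference of 0.33 (SE 0.17) had an edgeR adjusted p of 0.252.
Myl7 (Entrez 17898, chromosome 11, 5896637 to 5898782, minus strand), the atrial regulatory light chain, stood at 44.81, 62.38, 79.23 and 123.2 CPM in FA and at 126.9, 97.07, 80.73 and 61.29 CPM in DE. The range within FA alone was wider than the distance between the group means of 77.42 ± 33.63 and 91.51 ± 27.78 CPM (SD, n = 4 per group). The log2 difference was 0.24 (SE 0.29, edgeR adjusted p = 0.62).

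The atrial forms were a small part of each light chain class. Myl7 made up 1.08% ± 0.404 of Myl2 and Myl7 fragments in FA and 1.36% ± 0.535 in DE (SD, n = 4 per group). Myl4 made up 4.26% ± 0.805 of Myl3 and Myl4 fragments in FA and 5.61% ± 1.13 in DE (SD, n = 4 per group). Neither ratio separated the groups. Myl7 over Myl2 differed 1.26-fold between the groups (exact two-sided permutation test, p = 0.4, adjusted 0.49), and Myl4 over Myl3 differed 1.33-fold (exact two-sided permutation test, p = 0.114, adjusted 0.305). The summed level of 11 atrial markers, which include Nppa and Sln, ran from 558.7 to 1152 CPM in FA and from 453.3 to 679.9 CPM in DE, and none of the 11 was at 0. Of the 11, 4 had a fitted difference below 0 and 7 above 0. Nppa, the atrial natriuretic peptide gene, averaged 704 CPM in FA against 397.8 CPM in DE (edgeR adjusted p = 0.0821), and Sln, the sarcolipin gene, averaged 3.249 and 4.077 CPM (edgeR adjusted p = 0.75). The potassium channel gene Kcnj5 was the only atrial marker called by edgeR (3 by DESeq2), and it was lower in DE by a log2 difference of -0.46 (edgeR adjusted p = 0.0196). Of the 6 ventricular markers reported here, 5 had a fitted difference below 0 and Lbh was called lower, with a log2 difference of -0.42 (edgeR adjusted p = 0.0463). With the libraries of prefix 11 only, neither Kcnj5 nor Lbh was called. No atrial marker was called with the prefix as a term, without FA replicate 4 or without DE replicate 3. The part of atrial cells in the light chain values was not tested.

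Myl9 (Entrez 98932, chromosome 2, 156775408 to 156781657, plus strand) encodes a regulatory light chain of smooth muscle and non-muscle myosin, so its RNA can come from cells other than cardiomyocytes. It stood at 442.0, 599.1, 545.5 and 730.1 CPM in FA and at 540.5, 499.9, 491.7 and 406.8 CPM in DE. FA was the wider group, and 3 DE libraries fell inside its range. The means were 579.2 ± 119.9 and 484.7 ± 56.15 CPM (SD, n = 4 per group), a log2 difference of -0.26 (SE 0.15, edgeR adjusted p = 0.299). None of 12 smooth muscle and pericyte markers was called by edgeR (2 at an unadjusted p under 0.05, and 1 called by DESeq2), and their summed level was 2160 to 2902 CPM in FA and 1802 to 2265 CPM in DE. Of these 12 markers, 4 had a fitted difference below 0 and 8 above 0, with a median log2 difference of 0.15. The most abundant were Acta2, smooth muscle actin, at 1151 ± 276.8 and 745.9 ± 132.1 CPM, and Des, the desmin gene that cardiomyocytes also express, at 986.0 ± 128.2 and 920.5 ± 67.74 CPM (SD, n = 4 per group). All 12 were detected, Myh11, the smooth muscle heavy chain, at 17.9 CPM in FA against 22.3 CPM in DE. Their part in the Myl9 level was not tested.

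Mylk3 (Entrez 213435, chromosome 8, 85324928 to 85386340, minus strand), which encodes the cardiac kinase of the Myl2 product, was lower in every DE library without passing the threshold. It stood at 440.4, 385.7, 439.3 and 395.9 CPM in FA and at 363.7, 285.8, 282.0 and 336.3 CPM in DE. The groups did not overlap. The means were 415.3 ± 28.61 and 316.9 ± 39.81 CPM (SD, n = 4 per group), a log2 difference of -0.39 (SE 0.11, edgeR adjusted p = 0.0592). DESeq2 called it at the same difference (adjusted p = 0.0144). With the prefix as a term the difference was -0.25 (edgeR adjusted p = 0.273), and with the libraries of prefix 11 only it was -0.25 (edgeR adjusted p = 0.334). Mylk3, Myh6 and Myh7 were the 3 of the 9 genes whose groups did not overlap, against 14.7% of all tested genes, and also the 3 with an unadjusted edgeR p under 0.05, against 25.6% of all tested genes. Relative to Myl2, Mylk3 was at 0.0605 ± 0.0147 in FA and 0.0477 ± 0.0127 in DE (SD, n = 4 per group; exact two-sided permutation test, p = 0.257, adjusted 0.411).

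**Figure D3:**
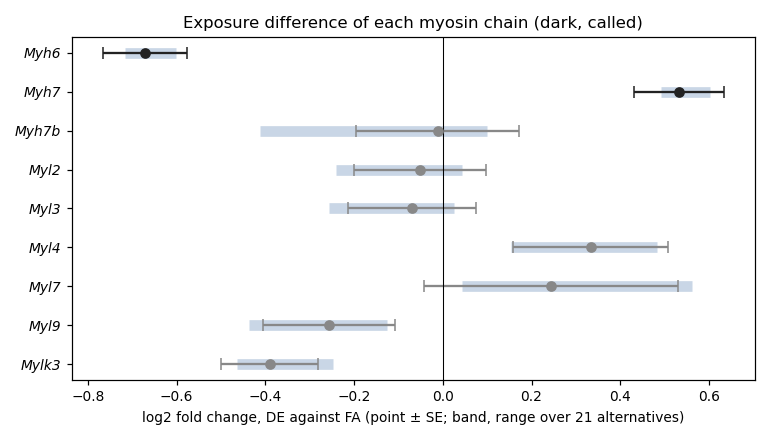
Log2 difference of DE against FA for each gene, with points for the fit over all 8 libraries, bars for its SE and bands for the range over 21 alternative settings. Myh6 lies at -0.67 and Myh7 at 0.53, dark because they were called, and the bands of Myh7b, Myl2 and Myl3 cross 0.

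Where chains were summed, the balance between classes of chain was compared per kilobase of the longest GENCODE transcript with a RefSeq link. Regulatory (Myl2 and Myl7) over essential (Myl3 and Myl4) light chains gave 2.99, 2.886, 2.752 and 2.877 in FA and 2.854, 2.812, 2.99 and 2.84 in DE. In FA this was the ratio with the least spread between hearts on the log2 scale, and in DE it came second to β over α heavy chain, with means of 2.876 ± 0.0972 and 2.874 ± 0.0791 (SD, n = 4 per group; exact two-sided permutation test, p = 1.0). Heavy (Myh6 and Myh7) over regulatory light chains (Myl2 and Myl7) averaged 0.515 ± 0.117 in FA and 0.456 ± 0.0622 in DE (SD, n = 4 per group; exact two-sided permutation test, p = 0.429, adjusted 0.49). The ratio of Myl9 to Myl2 fragments, not divided by length, averaged 0.0818 in FA and 0.072 in DE (exact two-sided permutation test, p = 0.257, adjusted 0.411). Of the 8 ratios, β over α heavy chain was the only ratio whose groups did not overlap.

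**Figure D4:**
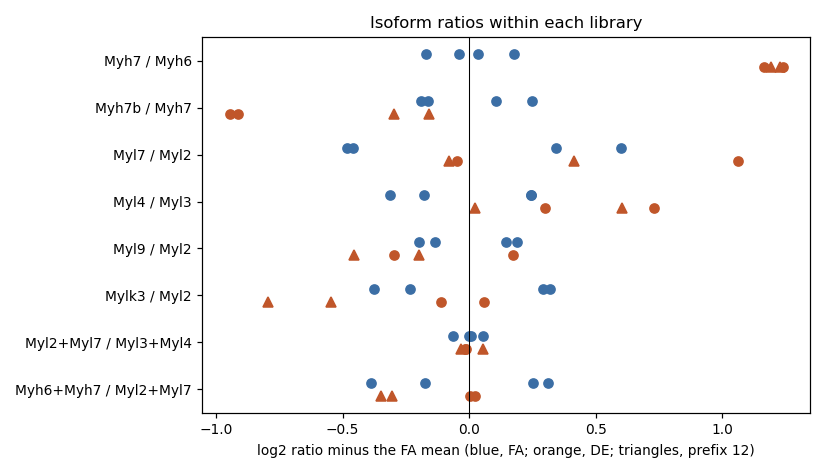
Log2 of each of the 8 ratios in each library, less the FA mean of that ratio (FA blue, DE orange, triangles for libraries of prefix 12). The DE points of Myh7 over Myh6 lie apart from FA around 1.21, and the points of regulatory over essential light chains lie close to 0 in both groups.

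On the per-kilobase scale the levels in FA ran, from high to low, Myl2 (10720 ± 1916 CPM per kb), Myh6 (3811 ± 248.7), Myl3 (3615 ± 652.2), Myh7 (1609 ± 151.4), Myl9 (513.5 ± 106.3), Myl4 (159.5 ± 38.89), Myl7 (131.2 ± 56.99), Mylk3 (112.4 ± 7.742) and Myh7b (23.2 ± 3.282, SD, n = 4 throughout). Within FA the neighbours Myh6 and Myl3, Myl4 and Myl7, and Myl7 and Mylk3 overlapped over libraries. In DE the order differed in 1 place, with Myl3 (3446 ± 484.5 CPM per kb) ahead of Myh6 (2392 ± 112.0) in all 4 libraries and Myh6 next to Myh7 (2326 ± 136.8). The ranges of Myh6 and Myh7 overlapped in DE, although Myh6 was above Myh7 per kilobase in each of the 4 libraries. Myh7b remained the lowest of the 9 in DE at 23.0 ± 6.379 CPM per kb.

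Levels of markers for the cells in the preparation are given beside the heavy chains. The summed level of 9 cardiomyocyte markers ran from 39750 to 43030 CPM in FA and from 32380 to 38040 CPM in DE, with 1 of 9 called, Pln, the phospholamban gene (log2 difference -0.38, edgeR adjusted p = 0.036), and a median of -0.16. The count of 1 was 0 without FA replicate 2, 4 or 6 or DE replicate 3 or 5, with library totals alone, with the prefix as a term and with prefix 11 only, and it was 2 with DESeq2 or without DE replicate 1 and 3 with 1 surrogate variable. Actc1, cardiac actin, was at 12830 ± 1931 and 11140 ± 1490 CPM and Tnnt2, cardiac troponin T, at 8234 ± 996.9 and 7895 ± 1041 CPM (SD, n = 4 per group). The summed level of 9 fibroblast markers ran from 2045 to 3532 CPM in FA and from 3736 to 6284 CPM in DE. Col1a1, Dcn and Dpt, which encode a collagen chain and matrix proteins, were called higher (log2 differences 0.95, 0.56 and 0.84, edgeR adjusted p = 0.00874, 0.0472 and 0.0247), and the median of the 9 was 0.67. The count of 3 was 1 without FA replicate 2, 3 or 4 or DE replicate 3, 5 without FA replicate 6 or DE replicate 5, 5 with the prefix as a term, 7 with DESeq2, and 8 with length and GC offsets or with 1 surrogate variable. The fitted difference was below 0 for 9 of 9 cardiomyocyte markers and above 0 for 9 of 9 fibroblast markers. The part of these cells in the Myh6 and Myh7 levels was not tested. Summed levels of 10 skeletal muscle, 7 endothelial, 5 erythroid and 6 leukocyte markers overlapped between the groups. None was called by edgeR, with 2, 2, 0 and 1 at an unadjusted p under 0.05 in that order, and DESeq2 called 1 endothelial and 1 leukocyte marker. The leukocyte sum was 11.66 to 17.84 CPM in FA and 14.34 to 25.16 CPM in DE.

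Around the 9 genes, 68 other genes of the myosin machinery were listed and 62 of them passed the filter. Of these, 3 were called (4.84%, against 5.8% of all tested genes), 11 had groups that did not overlap (17.7%, against 14.7%), and the median log2 difference was -0.13.

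None of the 6 other myosin II heavy chains tested was called (edgeR, 1 at an unadjusted p under 0.05, and 0 called by DESeq2), with a median log2 difference of 0.20. The most abundant were the non-muscle chains Myh10, at 273.5 ± 51.73 CPM in FA against 298.6 ± 26.48 CPM in DE, and Myh9, at 217.7 ± 27.98 and 254.7 ± 25.36 CPM (SD, n = 4 per group). None of the 6 other light chains tested was called (edgeR, 3 at an unadjusted p under 0.05, and 2 called by DESeq2), with a median of 0.45. In 2 of them FA and DE were apart. Myl12b, a non-muscle regulatory light chain, was at 40.41 ± 7.068 CPM in FA against 60.09 ± 11.28 CPM in DE (SD, n = 4 per group, log2 difference 0.57, edgeR adjusted p = 0.055). Myl6, the non-muscle essential light chain, was at 207.1 ± 34.93 CPM in FA against 283.6 ± 34.86 CPM in DE (SD, n = 4 per group, log2 difference 0.45, edgeR adjusted p = 0.073). Myl12a, another non-muscle regulatory light chain, was at 171.0 ± 17.88 and 165.7 ± 11.25 CPM (SD, n = 4 per group).

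Of 13 light chain kinases, phosphatase subunits and their regulators, 2 were called and both were higher in DE. Ppp1r12c, a targeting subunit of myosin phosphatase, stood at 63.96, 69.6, 65.8 and 62.21 CPM in FA and at 84.87, 107.2, 97.47 and 78.35 CPM in DE (log2 difference 0.49, SE 0.11, edgeR adjusted p = 0.0291). Ppp1r14a, an inhibitor of myosin phosphatase, stood at 1.23, 1.594, 1.072 and 1.672 CPM in FA and at 2.784, 4.389, 3.292 and 2.239 CPM in DE (log2 difference 1.21, SE 0.24, edgeR adjusted p = 0.0183). Both genes were higher in every DE library than in any FA library, Ppp1r14a with 550 counts over all 8 libraries. With the prefix as a term, with prefix 11 only, and without FA replicate 2, FA replicate 4 or DE replicate 3, none of the 13 was called, and without FA replicate 3, FA replicate 6 or DE replicate 5, 1 was. The median of the 13 was -0.23, and the most abundant, Ppp1cb (587.9 and 502.4 CPM, the catalytic subunit) and Rock2 (359.4 and 291.0 CPM, a kinase that acts on the phosphatase), were not called.

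Partners of the thick filament and chaperones of myosin gave no calls in edgeR. Of 10 filament partners tested, 2 had an unadjusted p under 0.05 (edgeR), DESeq2 called 2, and the median was -0.14. Ttn, the giant spring titin, averaged 5705 ± 1695 CPM in FA against 3285 ± 650.9 CPM in DE (SD, n = 4 per group, log2 difference -0.80, SE 0.22, edgeR adjusted p = 0.0562), but FA replicate 3, at 3272 CPM, lay below DE replicate 1, at 4191 CPM. Mybpc3, cardiac myosin-binding protein C, was at 4149 ± 114.3 and 3746 ± 147.2 CPM (SD, n = 4 per group). Of 9 folding and turnover genes, 2 had an unadjusted p under 0.05 (edgeR) and DESeq2 called 0, with a median of -0.09, and the chaperone genes Hsp90ab1 (1832 and 1871 CPM) and Hsp90aa1 (497.5 and 466.7 CPM) led in level.

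Of 18 transcription factors and binding proteins known or proposed to act on the heavy chain genes, 16 had a fitted difference below 0 and 1 was called. Sox6, a repressor of slow-muscle genes in skeletal muscle, stood at 46.82, 36.07, 43.85 and 38.26 CPM in FA and at 34.13, 27.22, 30.5 and 30.86 CPM in DE. The groups did not overlap (log2 difference -0.43, SE 0.11, edgeR adjusted p = 0.0497). The median of the 18 was -0.16, against 0.00 over all tested genes. Of 9 cardiomyocyte markers, 9 were likewise fitted below 0, with a median of -0.16. The M-CAT binding factor Tead1 was at 323.9 ± 107.0 and 288.5 ± 64.16 CPM and Purb, a single-stranded DNA binding repressor of Myh6, at 348.9 ± 83.55 and 287.6 ± 56.49 CPM (SD, n = 4 per group), and neither was called. The thyroid hormone receptor gene Thra was at 106.9 ± 18.04 and 97.44 ± 10.25 CPM and Thrb at 2.44 ± 0.325 and 1.518 ± 0.797 CPM (SD, n = 4 per group), with edgeR adjusted p of 0.554 and 0.189. The count of 1 called regulator was 0 in 13 of 21 alternatives, among them limma-voom, other scalings, the prefix as a term, prefix 11 only and 6 of the 8 fits that left out a library, and it was 3 with DESeq2. The count of 3 called genes in the machinery lists depended on single libraries, since it was 0 without FA replicate 2, FA replicate 4 or DE replicate 3, 1 without DE replicate 5 and 8 without DE replicate 1. With the libraries of prefix 11 only it was also 0.

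**Figure D5:**
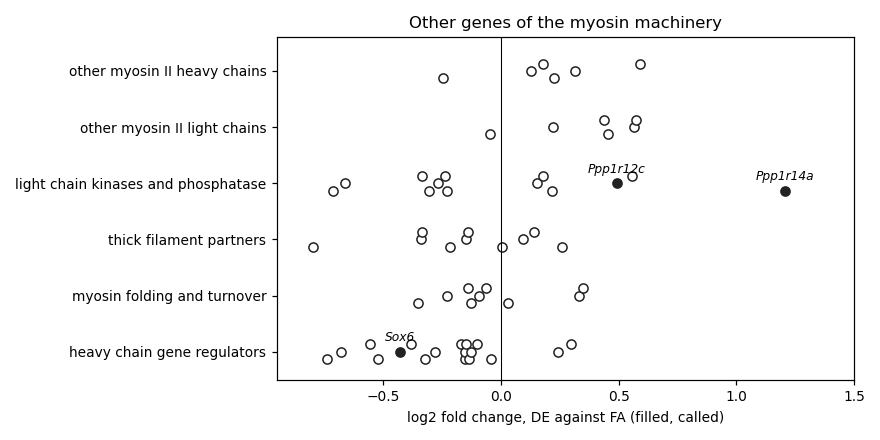
Log2 difference of DE against FA for the 62 tested genes of the myosin machinery by list, with filled points for called genes. Only Sox6, Ppp1r12c and Ppp1r14a are filled, and all but 2 of the 18 regulators lie left of 0.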

How the data were processed

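RNA-seq was analysed from 8 NCM libraries. The authors made stranded poly-A libraries, mapped the reads with TopHat on mm10, kept marked duplicates, and used featureCounts to count fragments. The authors deposited raw counts, 1 row for each Entrez gene. The counting annotation, strand setting and treatment of fragments that match several genes are not given in the sources used here. Duplicates left in the counts are not independent molecules. Of 27179 genes, 25275 were matched to a symbol through RefSeq identifiers, and all 9 myosin genes were found.

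Counts were filtered with filterByExpr at a minimum of 10, scaled with TMM and tested over all 8 libraries in edgeR 4.0.16 (quasi-likelihood, glmQLFit and glmQLFTest, R 4.3.3), with a single term for exposure. P-values were adjusted by Benjamini-Hochberg over 14966 genes, and a call needed an adjusted p-value up to 0.05 together with a fold of at least 1.25. Ratios were taken within each library and compared with an exact permutation test over all 70 splits. Each library is 1 heart, and relations between litters are not stated, so p-values measure the spread between these hearts. Genes, lists and tests were chosen with earlier results of these data known. The text names the 9 genes, called genes of each list, and the 2 of highest mean CPM in each machinery list and in the cardiomyocyte, smooth muscle and atrial marker lists, the only marker lists where the rule was followed in full. Mhrt, Myl12b, Thra, Thrb, Sln and Myh11 were named after their values were seen. A result for 1 listed marker gene, and the summed level of its list, are not reported here. Motifs searched on both strands of RefSeq promoter windows were the TATA box TATAAA, the M-CAT core CATTCC, the nuclear receptor site AGGTCA, the NKX2-5 core TNAAGTG, the E-box CANNTG (in 72.3% of promoters, left in lower case), the CArG box and the MEF2 site. The statistical code was tested on simulated data. The alternatives tried included DESeq2 1.42.0, limma-voom (limma 3.58.1), edgeR's likelihood ratio test, other scalings and filters, totals without the 9 genes, the prefix as a term, prefix 11 only, length and GC offsets (known for 92.55% of tested genes), 1 surrogate variable from sva 3.50.0, and each library left out.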

Additional observations from a re-analysis of the deposited data

How the results depend on the processing

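Myh6 was called in all 21 alternatives (log2 difference -0.72 to -0.60). Myh7 was called in 19 (0.49 to 0.60), the others being the prefix as a term (0.53, edgeR adjusted p = 0.0512) and prefix 11 only (0.52, edgeR adjusted p = 0.0724). All FA libraries carry prefix 11, so in both settings the difference rests on FA against the DE libraries of prefix 11 alone. They are not separate checks. The SE for Myh7 was 0.13 in each, against 0.10 in the main fit. Mylk3 was called in 5, with DESeq2 at -0.39, edgeR's likelihood ratio test at -0.39, length and GC offsets at -0.37, 1 surrogate variable at -0.33 and without DE replicate 1 at -0.46, and Myl9 with length and GC offsets at -0.44 (edgeR adjusted p = 0.0459), with the cause not tested. Values not called changed sign for Myh7b under upper quartile factors (0.0193), library totals alone (0.0613) and length and GC offsets (0.0084), and for Myl2 and Myl3 under library totals alone (0.0197 and 0.0018), a scaling that moved the median of all genes to 0.08. With the prefix as a term Myl2 and Myl3 were both at -0.24, Myh7b at -0.41 and Mylk3 at -0.25. With each library left out, the ranges were -0.72 to -0.64 for Myh6, 0.49 to 0.58 for Myh7, -0.15 to 0.10 for Myh7b, -0.16 to 0.0423 for Myl2, -0.16 to 0.0248 for Myl3, 0.20 to 0.48 for Myl4, 0.04 to 0.56 for Myl7, -0.37 to -0.13 for Myl9 and -0.46 to -0.34 for Mylk3. The 2 called genes of the 9 became 1 with the prefix as a term, 1 with prefix 11 only and 4 with length and GC offsets, and stayed at 2 to 3 with a library left out. Called machinery genes, 3 in all, became 9 with DESeq2, 9 with the likelihood ratio test, 9 with length and GC offsets, 13 with 1 surrogate variable, 1 with the prefix as a term (a heavy chain gene not among the 3) and 0 with prefix 11 only, and 0 to 8 with a library left out. Over all genes 868 calls became 1633 with DESeq2, 1603 with the likelihood ratio test, 1529 with length and GC offsets, 2007 with 1 surrogate variable, 448 with the prefix as a term and 260 with prefix 11 only, and 237 (without FA replicate 4) to 1168 (without DE replicate 1) with a library left out. Of the 8 ratios, 6 kept their direction in all 11 alternatives each. With prefix 11 only, heavy over regulatory light chains was 0.01, Myh7b over Myh7 -0.93 and Mylk3 over Myl2 -0.03, and regulatory over essential light chains, near 0 throughout, lay between -0.0218 and 0.018 with a library left out. The ratios were tested again only with 0.5 added to each count and with sums not divided by length, where Myh7 over Myh6 kept its exact permutation p of 0.0286 and no other ratio had an exact p under 0.05. No paired analysis was possible because the labels give no pairing of FA and DE hearts. Low genes such as Ppp1r14a and Thrb rest on 550 and 422 counts over all 8 libraries, and an effect of depth on them was not tested.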

Other observations

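Promoter windows of the other genes held these motifs. A CArG box, the site of serum response factor, was found in the windows of Myl3, Myl7 and Myl9, against 1.63% of 32851 RefSeq promoters, and the MEF2 site, found in 0.557% of promoters, was in none of the windows of the 9 genes. CATTCC was found in windows of Myl3, Myl7 and Mylk3 and AGGTCA in those of Myh7b and Myl2, against 14.7% and 16.3% of promoters. A Myl2 window also held TATAAA, and the Myl4 window held none of these. A match is a description of letters in a window.

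Among 9134 genes of at least 10 CPM, those whose log2 CPM followed Myh6 most closely over the 8 libraries were Tfrc, Sf3a1, Coa5, Hsdl2 and Lrrc39, with Pearson r from 0.985 to 0.996. The libraries fall into 2 exposure groups that set most of such an r, and all values share depth and scaling. Tfrc, the transferrin receptor gene, averaged 350.5 CPM in FA against 107.9 CPM in DE. In the deviations from the group means, Tfrc was again nearest to Myh6, at 0.905, before Parp9, Smc4, Cenpf and Cip2a, down to 0.863. For Myh7 the nearest were E2f8, 4930579G24Rik, Cdk8, Nap1l1 and Neurl1b, from 0.952 to 0.984, and in the deviations Lpgat1, 2610002M06Rik, Ube2q2, Ppp1r3b and Carnmt1, from 0.904 to 0.949. All of these r are the highest picked from 9134 genes over only 8 libraries, where high values can arise by selection, and none was tested.

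At the heavy chain locus, the rows of the microRNA genes were low. Mir208b, inside Myh7, averaged 4.726 ± 1.39 CPM in FA against 3.335 ± 1.533 CPM in DE (SD, n = 4 per group, edgeR adjusted p = 0.326), where its host was higher in DE. Mir208a, inside Myh6, averaged 0.931 and 0.925 CPM (edgeR adjusted p = 0.968). Mir499, inside Myh7b, had 5 counts over all 8 libraries and was not tested. These rows were chosen after their values were seen, and fragments of a host transcript and of a microRNA precursor cannot be told apart in them.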
